A study of Caenorhabditis elegans with 2 samples.

Results

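The molecular chaperones and co-chaperones of Caenorhabditis elegans were taken as the protein-coding nuclear genes whose symbol begins with hsp-, dnj-, cct- or pfd-, and their promoters were examined for regions bound by the forkhead factor PHA-4. The rule found 65 genes among 19973, of which 22 were hsp genes, 29 dnj genes, 8 cct genes and 6 pfd genes. The symbols hsp-16.1 and hsp-16.48 are each used for a pair of genes in the annotation, and the second gene of each pair is called hsp-16.11 and hsp-16.49 here, by its RefSeq name. Chromatin immunoprecipitation followed by sequencing (ChIP-seq), which recovers DNA bound by a chosen protein, was carried out on whole young adults of strain OP37, genotype unc-119(ed3) III; wgIs37, with PHA-4 tagged with enhanced green fluorescent protein (eGFP) as the target. Males and females were pooled, and 2 biological replicates made up 1 group, with library fragments of 150 to 350 bp. The labels name neither a heat treatment nor the promoter that drives the transgene, and the state of the endogenous pha-4 gene is not given. Since whole animals were used, no binding can be placed in a tissue, and no control immunoprecipitation was analysed here. The replicates stand apart: replicate 1 had no nuclear region with a q of at most 0.05, its lowest nuclear q being 0.163, while replicate 2 had 7548 regions that passed. With 1 group there was no condition to compare, so counts are described beside the same counts over all protein-coding genes.

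Chaperones bind unfolded or partly folded proteins and keep them from aggregating. Hsp70 proteins bind and release short hydrophobic stretches, driven by ATP, and J-domain proteins (the dnj genes) deliver clients and stimulate that ATP hydrolysis, while Hsp110 proteins exchange the nucleotide. Hsp90 acts later on signalling proteins. The CCT chaperonin is built from 8 different subunits and folds actin and tubulin, and prefoldin hands newly made chains to CCT. Small heat shock proteins hold denatured proteins without ATP. Several of these genes are expressed at all times, and others, with the hsp-16 genes and hsp-70 as the best known in worms, are almost silent until heat activates the factor HSF-1, which binds heat shock elements built from inverted repeats of GAA. PHA-4 is a FoxA protein known as the organ identity factor of the pharynx.

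The sequences at the 10 strongest optimal summits of chaperone genes are shown first, in order of signal, followed by that of hsp-90, chosen for the motif at its summit, so that what lies under the peaks can be read. Each is 121 bases of the ce11 reference (WBcel235), 60 on either side of the summit of the pooled region, written along the strand of the gene. Capitals mark a forkhead-type site (TNTTTNN on either strand, with a purine at the first 2 free positions and a pyrimidine at the last), a heat shock element (GAANNTTC, tail to tail, or TTCNNGAA, head to head), a GAGA repeat (GAGAGAG) or the XBP-1 type site TGACGTG. The windows were those of hsp-1 (chrIV:17278545-17278665, plus strand), dnj-9 (chrII:4851774-4851894, plus strand), cct-6 (chrIII:5855941-5856061, minus strand), dnj-14 (chrX:4711921-4712041, minus strand) and cct-8 (chrIV:1094329-1094449, minus strand). They were followed by cct-1 (chrII:8185145-8185265, plus strand), hsp-110 (chrIII:8447094-8447214, minus strand), hsp-3 (chrX:6092136-6092256, minus strand), hsp-60 (chrIII:1619054-1619174, plus strand), pfd-1 (chrIV:11149700-11149820, plus strand) and hsp-90 (chrV:14685774-14685894, plus strand).
hsp-1: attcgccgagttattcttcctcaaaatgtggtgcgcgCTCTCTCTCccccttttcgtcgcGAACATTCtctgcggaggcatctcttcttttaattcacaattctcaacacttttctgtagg
dnj-9: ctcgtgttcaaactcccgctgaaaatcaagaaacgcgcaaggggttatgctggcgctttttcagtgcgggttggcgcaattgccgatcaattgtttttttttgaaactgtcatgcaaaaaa
cct-6: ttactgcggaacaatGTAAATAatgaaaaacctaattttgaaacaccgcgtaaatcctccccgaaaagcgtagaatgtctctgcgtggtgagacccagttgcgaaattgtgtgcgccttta
dnj-14: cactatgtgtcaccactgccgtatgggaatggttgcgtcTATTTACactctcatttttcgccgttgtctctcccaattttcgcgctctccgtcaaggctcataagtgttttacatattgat
cct-8: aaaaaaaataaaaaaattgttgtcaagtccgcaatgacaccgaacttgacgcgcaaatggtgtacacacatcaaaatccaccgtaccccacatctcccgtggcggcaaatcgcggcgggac
cct-1: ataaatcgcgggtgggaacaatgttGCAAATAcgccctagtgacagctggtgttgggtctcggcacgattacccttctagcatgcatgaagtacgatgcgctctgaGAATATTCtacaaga
hsp-110: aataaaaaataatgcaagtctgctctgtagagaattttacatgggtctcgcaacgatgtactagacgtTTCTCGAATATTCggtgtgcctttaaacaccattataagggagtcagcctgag
hsp-3: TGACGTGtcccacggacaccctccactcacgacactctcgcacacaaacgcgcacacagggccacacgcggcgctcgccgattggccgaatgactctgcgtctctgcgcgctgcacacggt
hsp-60: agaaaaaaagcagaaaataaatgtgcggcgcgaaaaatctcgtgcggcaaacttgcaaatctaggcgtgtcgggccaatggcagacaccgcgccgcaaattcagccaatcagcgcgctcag
pfd-1: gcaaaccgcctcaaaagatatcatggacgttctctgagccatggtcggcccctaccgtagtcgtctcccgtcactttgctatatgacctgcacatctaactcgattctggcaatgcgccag
hsp-90: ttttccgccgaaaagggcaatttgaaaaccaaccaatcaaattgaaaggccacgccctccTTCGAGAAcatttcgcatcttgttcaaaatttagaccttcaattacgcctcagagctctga

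The element in hsp-1 was centred 3.5 bp from the summit, as was that in hsp-90, and both begin at base 61, the summit itself. In hsp-110 the capitals join both orientations into an element of 3 inverted units. The window of cct-6 held a forkhead-type site and that of cct-1 held one together with a heat shock element. The printed windows of dnj-9, cct-8, hsp-60 and pfd-1, all among the 10 strongest, held none of the motifs searched, and neither did that of dnj-11, which is not printed.

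For contrast, the whole 220 bases between the divergent heat-inducible genes hsp-16.2 and hsp-16.41 (chrV:1804958-1805177, plus strand, from the 5' end of hsp-16.2 to that of hsp-16.41) are given with the heat shock elements in capitals. The stretch holds a 3-unit element at bases 58 to 70 and a further element at bases 212 to 219.
hsp-16.2 to hsp-16.41: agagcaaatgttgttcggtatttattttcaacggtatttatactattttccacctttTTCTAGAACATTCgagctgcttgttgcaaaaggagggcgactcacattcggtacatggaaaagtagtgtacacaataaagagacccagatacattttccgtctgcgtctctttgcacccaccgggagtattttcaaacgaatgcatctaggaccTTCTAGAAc

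PHA-4 regions lay in the promoters of many of the general folding machines, with the strongest at hsp-1, dnj-9 and cct-6. A promoter window ran from 1000 bp upstream to 200 bp downstream of any annotated transcript 5' end, and a region counted when its summit fell inside. Of the 65 chaperone genes, 48 had a region of the pooled relaxed list in the window (73.8%, 95% interval 61.5 to 84.0, exact Clopper-Pearson, covering counting error over genes only), beside 38.9% of all protein-coding genes. With a q value of at most 0.05 the count was 27 of 65 (41.5%, interval 29.4 to 54.4), beside 12.8% of all genes. The optimal list, which holds the regions that passed the authors' irreproducible discovery rate threshold, had a peak at 16 of 65 (24.6%, interval 14.8 to 36.9), beside 3.52% of all genes. All 3 shares of the chaperone genes were above the background share. A place in the optimal list does not show that both replicates held a region, since 580 of its 839 peaks overlapped a region of replicate 1. The relaxed list holds peaks together with background regions, so a region in it alone does not show binding. In the pooled list or either replicate, 13 chaperone genes had no region in the window.

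The signal value is the authors' own measure of each region, with an unstated scale. Ranks and medians compare regions within a list. Values from different lists are given side by side, but are not known to share a scale. Of the 24890 pooled regions, 4065 reached a q of at most 0.05, and the 839 optimal peaks were the 839 strongest of the list, with signals from 41.0 to 168.7 and a median of 50.8. Among the chaperone genes with a pooled region, the strongest region in the window had a median signal of 24.9, compared with 16.8 over all genes with a region. Among those with an optimal peak the median was 61.3, compared with 52.2. The 65 windows held 66 distinct pooled regions and 16 distinct optimal peaks, so no optimal peak was counted for more than 1 chaperone gene.

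**Figure D1:**
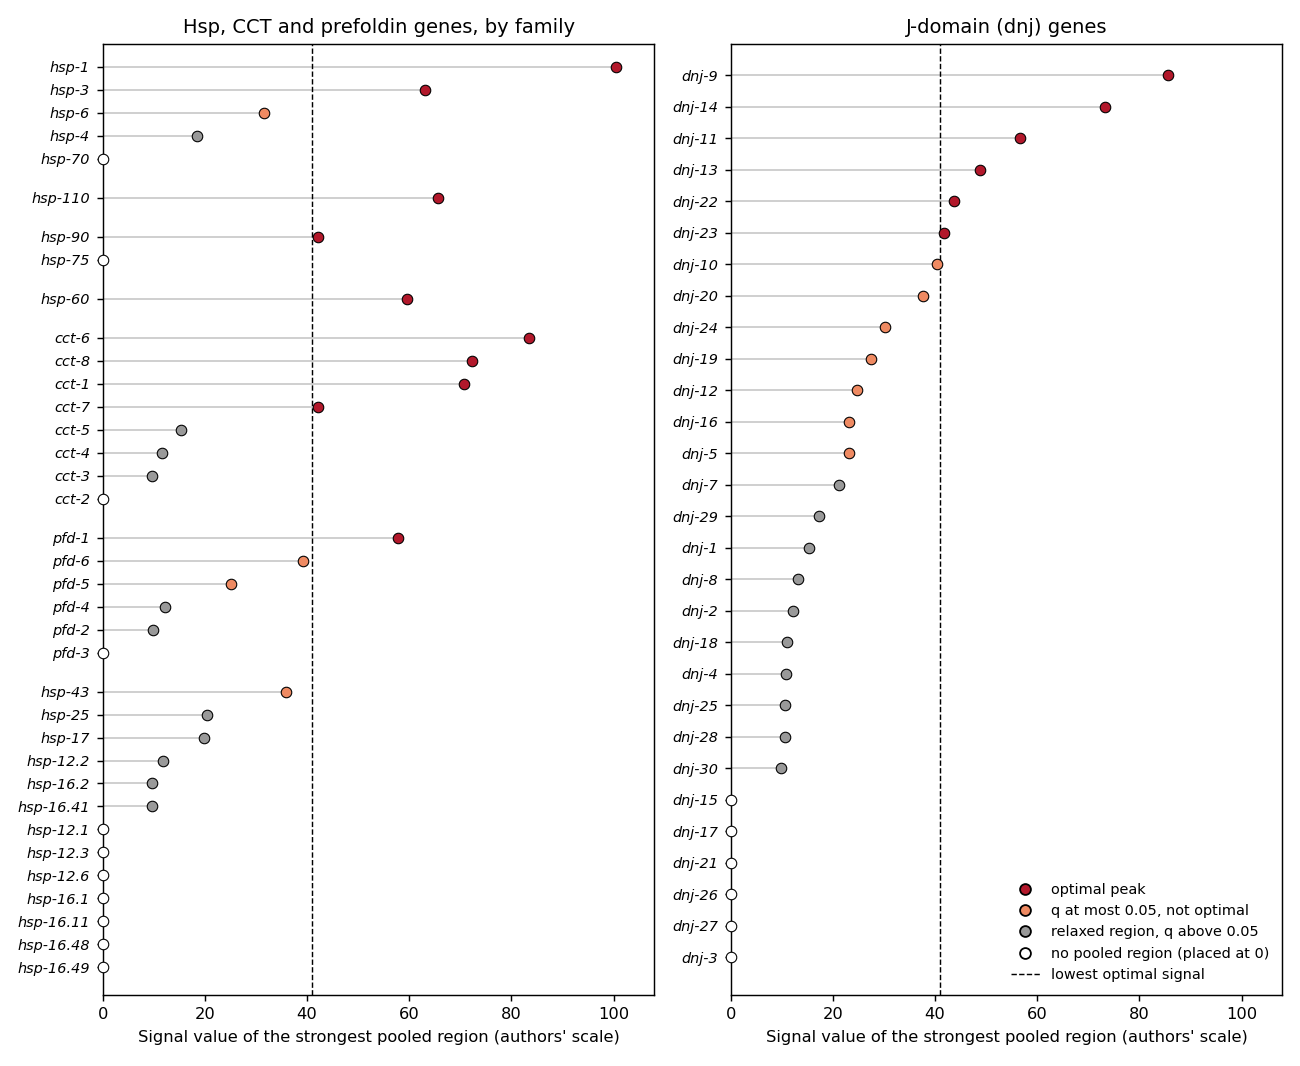
Signal value of the strongest pooled region in the promoter window of each of the 65 chaperone genes, by family, with genes without a pooled region placed at 0 as open circles and the lowest optimal signal (41.0) as a dashed line. Optimal peaks reach from 41.7 at dnj-23 to 100.5 at hsp-1, 4 of the 8 CCT genes lie right of the line, and no small heat shock protein gene does.

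The cytosolic Hsp70 gene hsp-1, the constitutive Hsc70 of the worm, had the strongest region of any chaperone gene. Its pooled signal was 100.5, rank 23 of the pooled list, with the summit at -354 bp, negative values being upstream of the 5' end. In replicate 2 the region had a signal of 94.8 and again rank 23, whereas the overlapping region of replicate 1 had a signal of 4.31 and rank 26707. The peak lay in no other gene's window. The gene for its exchange factor, hsp-110, had a pooled signal of 65.7 (rank 157) at -245 bp and a replicate 2 signal of 66.7, and no overlapping region in replicate 1. This peak was shared with rpn-3, a subunit of the proteasome regulatory particle, whose 5' end was the nearer, 199 bp away. At hsp-90, the only cytosolic Hsp90 gene (also known as daf-21), the optimal peak was near the lower end of the list, with a pooled signal of 42.1 (rank 775), 40.9 in replicate 2 and 5.88 in replicate 1. The summit was at -326 bp from an internal 5' end and so lay within the annotated gene, whose outermost 5' end is at position 14684918 of chromosome V. The inducible Hsp70 gene hsp-70 had no pooled region. A weak region of replicate 1 alone, with a signal of 4.68 and rank 22575, lay at -804 bp.

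The CCT genes divided into 4 with strong and 4 with weak or no regions. The chaperonin is built from all 8 subunits, yet 4 of its 8 genes had an optimal peak (50%, interval 15.7 to 84.3), beside 3.52% of all genes. The other subunit genes had no region of q at most 0.05. The highest was cct-6, with a pooled signal of 83.5 (rank 53) at -314 bp, 77.1 in replicate 2 and 8.42 in replicate 1. For cct-8 the pooled signal was 72.3 (rank 107) at -469 bp and the replicate 2 signal 69.0, with no overlapping region in replicate 1. For cct-1 it was 70.8 (rank 119) at -238 bp, 67.9 in replicate 2 and 8.41 in replicate 1. These subunit genes ranked close together, while cct-7 was much lower, with a pooled signal of 42.2 (rank 764) at -261 bp and only 27.1 in replicate 2, but with 13.4 in replicate 1, rank 268 there. All 4 peaks were shared with a divergent neighbour whose 5' end was nearer to the summit, alh-9 for cct-6 at 17 bp, Y55F3AR.2 for cct-8 at 152 bp, mig-5 for cct-1 at 182 bp and T10B5.4 for cct-7 at 178 bp. Of the other subunits, cct-5 had a relaxed region with a signal of 15.3, cct-4 one of 11.6 and cct-3 one of 9.74, all below the median of 16.8 for genes with a region. At cct-2 the window was empty. Its nearest pooled region, with a signal of 20.1, lay at 224 bp downstream, just outside the window.

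Among the prefoldin genes, only pfd-1 had an optimal peak, with a pooled signal of 57.9 (rank 261) at -353 bp and 58.0 in replicate 2, and no overlapping region in replicate 1. This peak too was shared, with F01G4.6, whose 5' end was 256 bp from the summit and the nearer. For pfd-6 the pooled signal was 39.2 (rank 976, q 0.00154), just under the lowest optimal signal, at -79 bp. Replicate 2 had a signal of 33.8 there. In replicate 1, a region of signal 14.5 at 84 bp was the strongest that any chaperone gene had in that replicate, rank 152. The signal at pfd-5 was 25.1 (q 0.0192). For pfd-2 it was 9.93 and the region of pfd-4 had a q of 0.707, and pfd-3 had no pooled region. Prefoldin thus had 3 of 6 genes with a region of q at most 0.05, beside 12.8% of all genes. It had 1 of 6 with an optimal peak (16.7%, interval 0.421 to 64.1), beside 3.52%.

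In the endoplasmic reticulum (ER), the binding protein BiP is encoded by hsp-3 and hsp-4, the first expressed at all times and the second the classical target of the unfolded protein response through XBP-1. At hsp-3 the pooled signal was 63.1 (rank 180) at -72 bp, with 61.7 in replicate 2 and 6.99 in replicate 1, and no other gene had this peak in its window. At hsp-4 the signal was 18.5 at -113 bp with a q of 0.175, so that the inducible copy had only a relaxed region. The site TGACGTG, the XBP-1 type site, was found within 100 bp of 1 of the 16 member optimal summits, that of hsp-3. That is 6.25%, beside 4.62% of the 520 optimal peaks in any promoter window. In the 300 bases upstream of the outermost 5' end, 6 of the 65 chaperone genes held the site (9.23%), beside 2.82% of all genes. Among them were the ER genes hsp-3, hsp-4, dnj-20 and dnj-29, while dnj-7, dnj-8 and dnj-27 had none. Of the ER J-domain genes, dnj-20, an ERdj3-type protein, had a pooled signal of 37.7 at -140 bp (q 0.00136). That offset is from an internal 5' end, so the summit lay within the annotated gene. The P58IPK-type gene dnj-7 had a signal of 21.2 (q 0.0727), the Sec63-type gene dnj-29 one of 17.3 (q 0.241) and dnj-8 one of 13.1 (q 0.611). The ERdj5-type gene dnj-27 had no pooled region and a replicate 2 region of signal 9.65. In all, 1 of 7 ER genes had an optimal peak (14.3%, interval 0.361 to 57.9), beside 3.52% of all genes. A region of q at most 0.05 was present at 2 of 7 (28.6%), beside 12.8%.

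The mitochondrial chaperonin gene hsp-60 had the only optimal peak among the 5 mitochondrial genes (20%, interval 0.505 to 71.6), beside 3.52% of all genes. The peak had a pooled signal of 59.6 (rank 225), 55.3 in replicate 2 and 8.5 in replicate 1. Its summit, at -628 bp, was the farthest upstream of the 16 optimal summits at chaperone genes and lay 185 bp from the 5' end of the divergent gene Y22D7AL.10. The mitochondrial Hsp70 gene hsp-6, partner of hsp-60 in protein import and folding, had a pooled signal of 31.6 (rank 1793, q 0.00307) at -380 bp and 38.9 in replicate 2, where it ranked 754. The Tid1-type J-domain gene dnj-10 had a signal of 40.3 (rank 891, q 0.00168) at -121 bp and 38.0 in replicate 2, with no region in replicate 1. Both were among the strongest 839 regions of replicate 2. With a window of 500 bp upstream to 100 bp downstream, which leaves out the hsp-60 summit, 0 of the 5 had an optimal peak. With that window 2.85% of all genes had one. The TRAP1-type Hsp90 gene hsp-75 and the TIM14-type gene dnj-21 had no region in the pooled list or in either replicate.

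Among the 29 J-domain genes, 6 had an optimal peak (20.7%, interval 7.99 to 39.7), beside 3.52% of all genes. A region of q at most 0.05 was present at 13 (44.8%), beside 12.8% of all genes. The strongest was at dnj-9, with a pooled signal of 85.6 (rank 47) at -222 bp, 83.8 in replicate 2 and 5.24 in replicate 1, and no other gene shared it. The gene for the cysteine string protein of synaptic vesicles, dnj-14, followed with a pooled signal of 73.3 (rank 97) at -233 bp, 67.2 in replicate 2 and 6.08 in replicate 1. For dnj-11, a ZRF1-type protein that works at the ribosome in other species, the signal was 56.6 (rank 281) at -255 bp, with 45.5 in replicate 2 and 9.3 in replicate 1. Replicate 2 exceeded replicate 1 at each of these, though the scales of the replicate lists are not stated to be the same. The DNAJB1-type gene dnj-13, partner of cytosolic Hsp70 in pulling aggregates apart, had a pooled signal of 48.8 (rank 487) at -247 bp, with 35.9 in replicate 2 and 14.1 in replicate 1, its rank of 194 there being the best of any of the 16. The lowest optimal peaks of the family were at dnj-22, with a signal of 43.8 at -155 bp, 34.1 in replicate 2 and 5.46 in replicate 1, and at the DNAJC9-type gene dnj-23, with 41.7 at -49 bp, 35.0 in replicate 2 and 8.79 in replicate 1. The DNAJA-type partners of cytosolic Hsp70 lay below the optimal list. The DNAJA2-type gene dnj-19 had a signal of 27.5 (q 0.00702), and the DNAJA1-type gene dnj-12 had 24.7 (q 0.0233). For dnj-24 the signal was 30.3, and dnj-16 and dnj-5 both had 23.2, each with q at most 0.05. The dnj-24 summit lay within the annotated gene, upstream of an internal 5' end. The remaining J-domain genes had relaxed regions of signal 9.87 to 21.2 or none.

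Among the small heat shock protein genes, 0 of 13 had an optimal peak (interval up to 24.7%), beside 3.52% of all genes. Any pooled region was present at 6 (46.2%, beside the 38.9% of all genes given above). At 4 of them, hsp-16.1, hsp-16.11, hsp-16.48 and hsp-16.49, the promoter is mostly repeated sequence. Of the other 9, 6 had a pooled region (66.7%) and 0 an optimal peak (interval up to 33.6%). Only hsp-43 had a region of q at most 0.05, with a signal of 35.9 at -339 bp (q 0.00117), 32.8 in replicate 2 and none in replicate 1. The signal was 20.5 at hsp-25, 19.8 at hsp-17 and 11.8 at hsp-12.2. The genes hsp-12.1, hsp-12.3 and hsp-12.6 had no pooled region in the window. The divergent pair hsp-16.2 and hsp-16.41 shared a single region of signal 9.65 (rank 23189, q 0.933), which is near the bottom of the list, and replicate 1 had none there.

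Constitutive genes, defined as the CCT and prefoldin genes with hsp-1, hsp-3, hsp-6, hsp-60, hsp-75, hsp-90 and hsp-110, had an optimal peak at 10 of 21 (47.6%, interval 25.7 to 70.2), and 13 of 21 had a region of q at most 0.05. The heat-inducible genes, the 6 hsp-16 genes and hsp-70, had an optimal peak at 0 of 7 (interval up to 41.0%) and no region of q at most 0.05, and 2 of 7 had any pooled region, the one shared by hsp-16.2 and hsp-16.41. The shares of all genes were 3.52%, 12.8% and 38.9%. At shares as low as the first 2, a count of 0 among 7 genes is unremarkable. The counts therefore cannot show whether heat-inducible genes differ from the background. At some of these promoters reads may also not be placeable, as described below. The intervals of the optimal shares overlap, and the difference between the classes was not tested. The 37 genes in neither class, mostly J-domain genes but also hsp-4, had an optimal peak at 6, all of them dnj genes. Both classes are lists of gene names set without expression values, so a constitutive gene may still respond to stress. The constitutive class is largely a class of 2 complexes: CCT and prefoldin make up 14 of its 21 genes.

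The hsp-16 promoters are in part duplicated, which bears on whether reads can be placed there at all. Of the 32-base words in the promoter window, 6.58% occurred once in the genome at hsp-16.11, 6% at hsp-16.1, and 0% at hsp-16.48 and hsp-16.49. At hsp-16.2 the share was 97.6%, at hsp-16.41 it was 95.8% and at hsp-70 it was 100%. The median over all protein-coding genes was 100%, and the lowest among the 16 genes with an optimal peak was 97.3%, at hsp-1. The sources used here do not say how reads from repeated sequence were placed, so for 4 of the 7 heat-inducible genes an absent region cannot be told apart from reads that could not be placed. For the 3 genes with mostly unique promoters, hsp-16.2, hsp-16.41 and hsp-70, 2 of 3 had a pooled region (66.7%, beside 38.9% of all genes). This was the 1 region of signal 9.65 shared by the pair. A region of q at most 0.05 was present at 0 of 3, beside 12.8% of all genes. With 3 genes, a count of 0 cannot be told apart from that share.

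By compartment, the cytosolic genes had an optimal peak at 11 of 30 (36.7%, interval 19.9 to 56.1), beside 3.52% of all genes. They had a region of q at most 0.05 at 15 of 30 (50%), beside 12.8% of all genes. The ER genes had an optimal peak at 1 of 7 and the mitochondrial genes at 1 of 5. Their intervals are so wide that they contain both the cytosolic share and the 3.52% of all genes. The 23 genes that were assigned to none of these had an optimal peak at 3 (13%, interval 2.78 to 33.6), namely dnj-9, dnj-22 and dnj-23. Compartment and class overlap, since 17 of the 21 constitutive genes are cytosolic, and 8 of these 17 had an optimal peak (47.1%). The share of mitochondrial genes with a region of q at most 0.05 was 3 of 5, beside the 12.8% of all genes. With each peak given only to the gene with the nearest 5' end, 4 cytosolic, 1 ER and 0 mitochondrial genes had an optimal peak. Under that rule 2.56% of all genes had one.

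**Figure D2:**
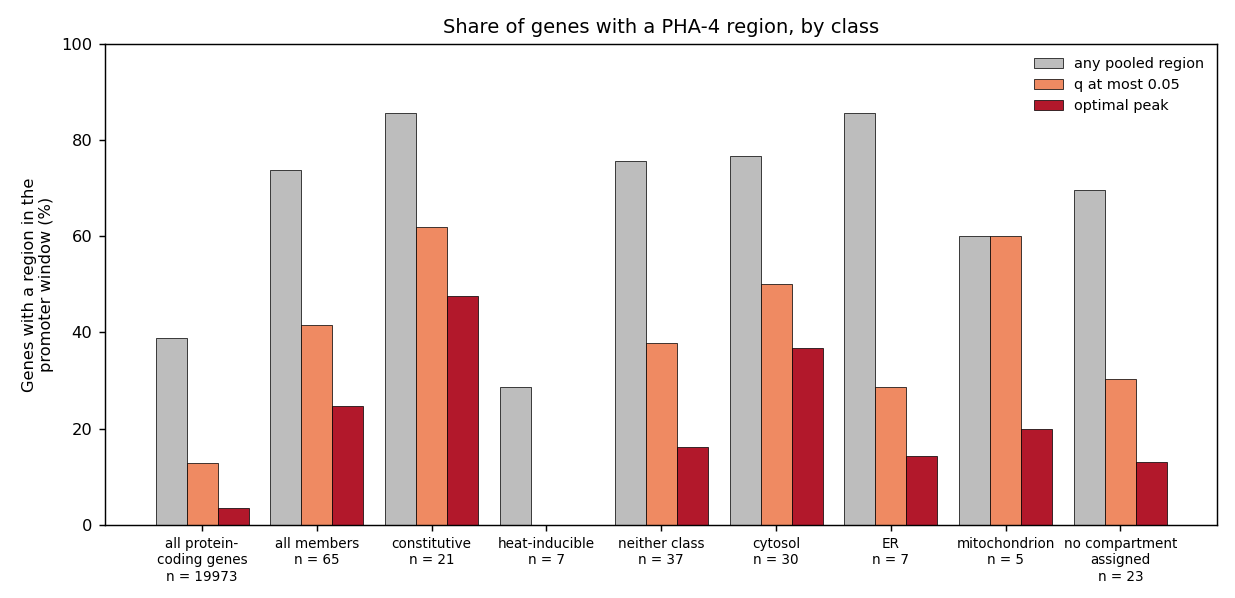
Percent of genes with any pooled region, a region of q at most 0.05 or an optimal peak in the promoter window, for all 19973 protein-coding genes, all 65 chaperone genes, and the chaperone genes by heat class and by compartment, with the number of genes under each group. Optimal peaks were at 47.6% of constitutive and 0% of heat-inducible genes, and at 3.52% of all genes. At a share of 3.52%, a count of 0 among 7 genes is unremarkable. The promoters of hsp-16.1, hsp-16.11, hsp-16.48 and hsp-16.49 are also mostly repeated sequence, so an absent region there cannot be read.

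All 16 optimal summits lay upstream of the 5' end they were measured from, between -628 and -49 bp, with a median of -251 bp. Over all genes with an optimal peak the median was -238 bp. A position between 200 and 400 bp upstream was held by 11 of the 16 (68.8%), compared with 32.9% of all genes with an optimal peak. The remaining summits were those of hsp-60 and cct-8, farther out, and of dnj-22, hsp-3 and dnj-23, nearer to the gene. This range was chosen after the positions were seen and describes these 16 genes only.

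**Figure D3:**
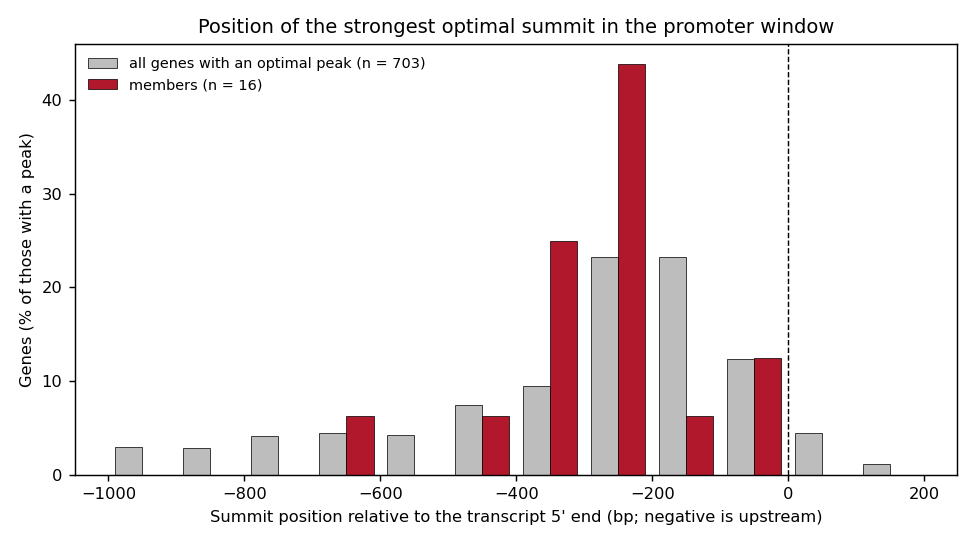
Distance of the strongest optimal summit from the transcript 5' end, in bins of 100 bp, as a percent of the 16 chaperone genes (red) and of all 703 genes (grey) that have an optimal peak in the window. The chaperone genes gather between -400 and -200 bp, a range chosen after the positions were seen. None lies downstream of the 5' end it was measured from, which for hsp-90 is an internal one.

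Most of these peaks cannot be given to the chaperone gene alone. The summit lay in the window of another protein-coding gene for 13 of 16, all but hsp-1, dnj-9 and hsp-3. In 9 of the 13 the neighbour's 5' end was the nearer, and in 4, dnj-14, dnj-13, hsp-90 and dnj-23, the chaperone's was. With each peak given only to the gene with the nearest 5' end, 7 chaperone genes had an optimal peak, beside 2.56% of all genes under the same rule, and 3 of these were constitutive, hsp-1, hsp-3 and hsp-90. A divergent upstream neighbour was present at 41 of the 65 chaperone genes (63.1%), compared with 45% of all genes. Divergent means here that the nearest upstream gene lies on the opposite strand, at any distance. Among the 41 the gaps ran from 0 bp at hsp-90 to 9697 bp at dnj-27, so not all are shared promoters. Of these 41, 14 had an optimal peak (34.1%), beside 5.23% of all genes with a divergent neighbour. Among the 13 chaperone genes with an upstream neighbour on the same strand less than 500 bp away, 1 had an optimal peak, dnj-9 (7.69%, beside 2.2%). Among the 11 with a same-strand neighbour farther off, 1 had one, hsp-1 (9.09%, beside 2.08%). The share was thus above that of all genes in each arrangement, on counts of 1 gene in 2 of the 3. The limit of 500 bp, used for same-strand neighbours only, was set after the values were seen.

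The 2 replicates contributed unequally to the chaperone counts. In replicate 1, 29 chaperone genes had a relaxed region in the window (44.6%), beside 39.8% of all genes, a share near the background. In replicate 2 the count was 48 (73.8%), beside 43.3%. Among the 839 strongest nuclear regions of replicate 1, 3 chaperone genes had a region (4.62%, interval 0.962 to 12.9), beside 2.26% of all genes. These were pfd-6, dnj-13 and cct-7. Among the 839 strongest of replicate 2, 14 had one (21.5%), beside 3.5%.

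Peak by peak, all 16 optimal peaks at chaperone genes overlapped a region of replicate 2 and 13 overlapped one of replicate 1. Over all optimal peaks, 69.1% overlapped a replicate 1 region. Signals in replicate 1 ran from 4.31 to 14.1, with ranks from 194 to 26707 and a median rank of 3470. In replicate 2 they ran from 27.1 to 94.8, with ranks from 23 to 1963 and a median rank of 169.5. The summit in replicate 2 was a median of 4.0 bp from the pooled summit and at most 110 bp, while in replicate 1 it was a median of 68 bp away and at most 211 bp. The first 3 genes, hsp-1, dnj-9 and cct-6, were the same in the pooled list and in replicate 2, whereas replicate 1, whose lowest q at these peaks was 0.183, ranked dnj-13 and cct-7 first. No chaperone region passed a q of 0.05 in replicate 1, and the read depth of each library is not known.

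**Figure D4:**
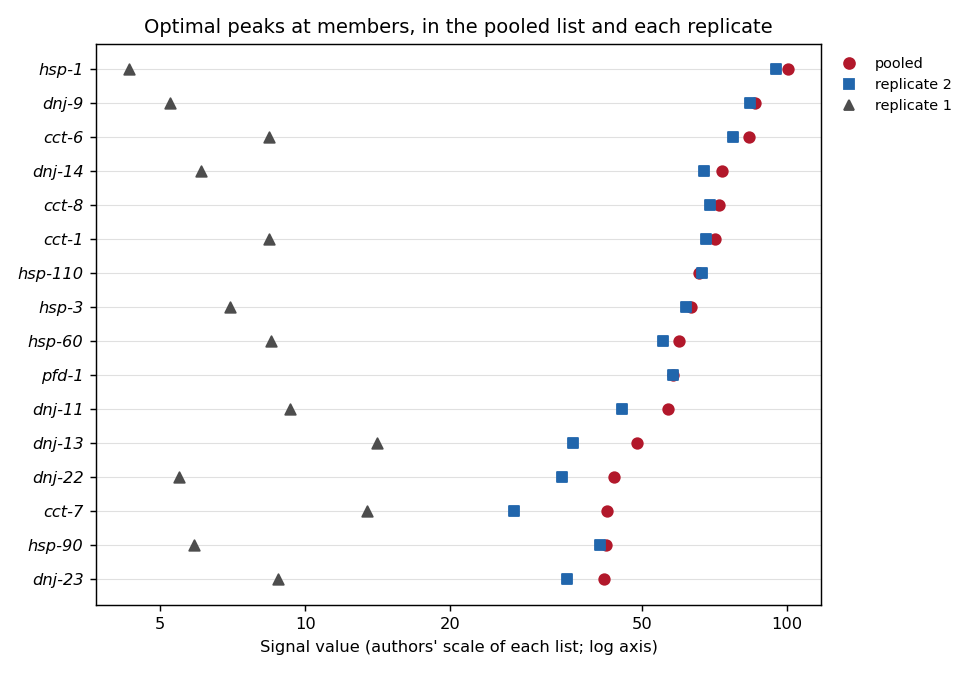
Signal value (log axis, the authors' scale of each list) of the 16 optimal peaks at chaperone genes in the pooled list (circles), replicate 2 (squares) and replicate 1 (triangles, absent at cct-8, hsp-110 and pfd-1). Replicate 2 lies beside the pooled value, from 27.1 to 94.8, and replicate 1 lies between 4.31 and 14.1.

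Heat shock elements lay near more of the chaperone summits than of optimal summits in general, and forkhead-type sites within 100 bp of a like share of both. Within 100 bp of the summit, and on both strands, GAANNTTC or TTCNNGAA was present at 10 of the 16 optimal peaks of chaperone genes (62.5%), beside 18.5% of the 520 optimal peaks in any promoter window. Within 50 bp the share was 25%, beside 7.5%. The 10 were those of hsp-1, cct-6, cct-8, cct-1, hsp-110, hsp-60, dnj-13, cct-7, hsp-90 and dnj-23. The tail-to-tail form alone was present at 8 (50%, beside 11.3%) and the head-to-head form at 5 (31.2%, beside 9.81%). An element of 3 units, in which both forms share a unit, was at hsp-110 and hsp-60 (12.5%, beside 1.54%). A forkhead-type site TNTTTNN was present at 7 (43.8%), which is close to the 44.6% over all 520. Within 50 bp it was present at 6 (37.5%), beside 26%. The 7 with a site within 100 bp were cct-6, dnj-14, cct-1, pfd-1, dnj-13, dnj-22 and dnj-23, so the strongest of all, hsp-1 and dnj-9, had none. The repeat GAGAGAG was present at 2 (12.5%, beside 15.8%). The site TGATAA of GATA factors was present at 3 (18.8%, beside 21%). The E-box CACGTG was present at 0, beside 11%. TGACGTG was at 1 (6.25%, beside 4.62%). The patterns were searched as letters, and a match does not show that a factor binds there.

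The same held when regions of every strength were counted. Over the 66 pooled regions in chaperone windows, 35 had either form within 100 bp (53.0%), beside 22.4% of the 9408 pooled regions in any promoter window, and 26 had a forkhead-type site (39.4%, beside 40.9%). In the 300 bases upstream of the outermost 5' end of each gene, either form was found at all 7 heat-inducible genes, at 15 of 21 constitutive genes (71.4%) and at 35 of all 65 (53.8%), beside 32% of all protein-coding genes. The 3-unit element was present at all 7 heat-inducible genes, including the pair printed above, and at 3 of 21 constitutive genes (14.3%), beside 1.92% of all genes. The forkhead-type site was in this stretch at all 7 heat-inducible genes and at 10 of 21 constitutive genes (47.6%), beside 54.1% of all genes. The hsp-16 genes lie in divergent pairs with gaps of 348, 310 and 220 bp, so the 300-base stretches of a pair overlap. The same sites can then be counted for both genes. The promoters of hsp-16.1, hsp-16.11, hsp-16.48 and hsp-16.49 are also mostly repeated sequence. The 7 genes are therefore not 7 separate promoters. The heat-inducible promoters thus held both kinds of letters and, where they could be assessed, no region above the relaxed level.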

How the data were processed

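The deposited files are narrowPeak lists made by the authors, with a signal value and a −log10 q value for each region. Per the deposited notes, there is a relaxed list for each replicate and for the pooled reads, and an optimal list of regions that passed a test of irreproducible discovery rate. The sources used here give no aligner, peak caller or depth, and intervals cover counting error over genes only. Lists on build ce11 were used with Ensembl release 115, without the mitochondrial genes. A summit was given to each gene whose window held it. Motifs and unique 32-base words were counted with Python 3.11.15 and numpy 2.4.6, and the region assignment was tested on simulated data. Sequence is the RefSeq WBcel235 reference. Groups and replicate numbers came from the labels.

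The members and lists were chosen with earlier results of these data known. The genes to be named were those with an optimal peak or a q of at most 0.05 and those of the heat-class, ER and mitochondrial lists. Outside that rule, the remaining small heat shock protein genes, dnj-25, neighbouring genes and some chaperone genes of the further list were also named. After the data were seen, dnj-15 was moved from the mitochondrial list to none, because its role was not sure, and both combined heat shock patterns were added. No test was run across genes. Other windows, 1 gene per region, any overlap of at least 1 bp, a q of at most 0.01, the stronger 50% of optimal peaks and each replicate alone were tried.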

Additional observations from a re-analysis of the deposited data

How the results depend on the processing

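Of 80 recomputed counts and motif shares, 60 stayed within 1.5 times the reported count or within its interval. With each region given to 1 gene, the nearest 5' end, 17 chaperone genes had a region of q at most 0.05, beside 10.2% of all genes. An optimal peak was then at 7, beside 2.56% of all genes, of which 3 were constitutive, 4 cytosolic and 0 mitochondrial. With the window of 500 bp upstream to 100 bp downstream, 0 mitochondrial genes had an optimal peak, beside 2.85% of all genes. Within 50 bp of the summit, the share was 0% for TGATAA, 0% for TGACGTG, 18.8% for GAANNTTC and 25% for the element in either form. Replicate 2 alone and replicate 1 alone gave 48 and 29 genes with a region (beside 43.3% and 39.8% of all genes), 29 and 0 with a q of at most 0.05 (beside 20.6% and 0% of all genes), 14 and 3 with one of the replicate's 839 strongest regions (beside 3.5% and 2.26%), 10 and 2 of the constitutive, 9 and 3 of the cytosolic, 1 and 0 of the ER and 3 and 0 of the mitochondrial genes. Replicate 2 alone gave 12 of the 16 genes, replicate 1 alone 2. The stronger 50% of the optimal list left 11 of the 16, and 1.9% of all genes had a peak of that part. No paired analysis was possible because there was 1 group. The cause of these shifts was not tested.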

Other observations

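Chaperone genes outside the symbol rule were counted as a further list, chosen with earlier results known. Of 22 listed, 21 matched the annotation (daf-21 is hsp-90 there), and 3 of these had an optimal peak, beside 3.52% of all genes, with 9 having a region of q at most 0.05 (beside 12.8%) and 16 any pooled region (beside 38.9%). The 3 fell to 1 in the stronger 50% of the optimal list and to 1 in replicate 1 alone. The strongest was at bag-1, a nucleotide exchange factor of Hsp70, with a pooled signal of 88.7 (rank 38) at -162 bp. The BAG-domain gene unc-23 had a signal of 49.7 at -32 bp, and the protein disulfide isomerase gene pdi-6 had 48.9 at 28 bp. The Hsp90 co-chaperone genes sti-1 and ahsa-1 had signals of 27.5 and 31.4. The gene for HSF-1 itself, hsf-1, had a relaxed region of signal 12.5, and hsb-1, which encodes an HSF-1 binding protein, had none.

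Some chaperone genes had an optimal peak beyond the promoter window. Within 5000 bp of a 5' end this was so for 6 of the 49 genes without one in the window, beside 6.07% of all genes without one. For dnj-20 it had a signal of 49.3 at -2095 bp, and for hsp-6 one of 48.9 at 3612 bp downstream. For dnj-16 it had a signal of 82.1 at 2199 bp. A peak of signal 68.7 lay at 3080 bp from hsp-12.3 and at 4801 bp from hsp-12.6. The auxilin gene dnj-25 has pha-4 as its divergent neighbour, 8705 bp away, and the nearest optimal peak between them had a signal of 77.4 at -3787 bp.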
